A study of Homo sapiens with 6 samples.

Results

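The cytosolic ribosomal protein genes encode the proteins of the large (RPL) and small (RPS) ribosomal subunits, and were followed here in melanoma cells that carried CT16 cDNA or the vector alone. Members were the array probes whose annotated symbol is RPL or RPS with a number, optionally followed by A, X or L, or is RPSA, RPLP0, RPLP1 or RPLP2. The S6 kinases, pseudogenes and Y-linked members were left out. On the array 123 probes of 75 such genes were found, among 48803 probes. A probe was tested when its detection p-value, taken against negative control beads, was under 0.01 on at least 3 of the 6 arrays. This left 117 member probes of 73 genes (75 probes of 47 large-subunit genes and 42 probes of 26 small-subunit genes) among 18156 tested probes. RPLP0, RPSA and RPL22L1 were not analysed here.

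WM-266-4 is a human melanoma cell line. CT16 cells (3 samples) were stably transfected with the plasmid pEXPR-IBA103 carrying CT16 cDNA. They were compared with control cells (3 samples), stably transfected with the intact plasmid. Both groups had therefore passed through stable transfection and selection, and no source used here says whether a line was 1 clone. CT16 (PAGE5) is a cancer-testis antigen, a protein normally made in the germ line and found again in tumours. RNA of each sample was measured on 1 Illumina bead array.

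Ribosomes are built from ribosomal RNAs and ribosomal proteins, and the proteins are made in matched amounts because unassembled copies are degraded. Their mRNAs are among the most abundant in growing cells and most begin with a run of pyrimidines, the 5′ terminal oligopyrimidine (TOP) motif, through which mTOR signalling controls their translation. Some members have close paralogs with tissue-restricted use, and some act outside the ribosome, for instance by binding MDM2, the protein that degrades p53.

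The start regions of 6 members are shown because 3 of them (RPS7, RPS3 and RPS23) had arrays that did not overlap between CT16 and control cells, and because the others contrast RPL39 and RPS27, which are core members, with RPS27L, a paralog of RPS27. Sequences are from RefSeq (GRCh38.p14) and run 5′ to 3′ from 50 bases before the annotated transcription start through the first 25 transcribed bases. Capitals mark an unbroken run of at least 8 C or T that holds the start base. The windows are chr2:3575210-3575284 (plus strand) for RPS7, chr11:75399468-75399542 (plus strand) for RPS3, chr5:82278330-82278404 (minus strand) for RPS23, chrX:119791606-119791680 (minus strand) for RPL39, chr1:153990712-153990786 (plus strand) for RPS27 and chr15:63157453-63157527 (minus strand) for RPS27L.
RPS7: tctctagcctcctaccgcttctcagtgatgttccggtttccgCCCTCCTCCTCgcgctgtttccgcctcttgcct
RPS3: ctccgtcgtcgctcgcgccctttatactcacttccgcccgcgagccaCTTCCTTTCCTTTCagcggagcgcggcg
RPS23: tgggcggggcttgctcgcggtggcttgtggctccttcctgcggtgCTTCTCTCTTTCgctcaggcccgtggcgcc
RPL39: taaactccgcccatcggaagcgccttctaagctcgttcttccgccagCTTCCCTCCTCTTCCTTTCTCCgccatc
RPS27: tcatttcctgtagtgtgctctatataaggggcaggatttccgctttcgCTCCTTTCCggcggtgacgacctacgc
RPS27L: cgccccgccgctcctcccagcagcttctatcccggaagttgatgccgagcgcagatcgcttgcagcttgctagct
The pyrimidine run measured 11 bases at RPS7, 14 at RPS3, 12 at RPS23, 22 at RPL39 and 9 at RPS27. It began before the start base in each, at -8, -3, -5, -3 and -2 in the same order. Its length is therefore not that of the pyrimidines at the start of the mRNA. RPS27L had no such run, as its annotated start base was not C or T. Of the 73 tested genes 62 had an entry in the table, and 42 of these (67.7%) had a run of this kind, against 5.94% of all 27305 genes in it. The core CGGAAG, the centre of the motif bound by ETS family factors, was found on either strand within the 300 bases of the table's window in 40 of the 62 (64.5%), against 22.6% of all genes. On the reverse strand this core reads CTTCCG and can overlap a pyrimidine run. A match describes the letters only.

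Array signals are given below as deposited, in arbitrary fluorescence units, and log2 values after background correction and quantile normalization. Differences are log2 CT16 minus control with their standard error (SE). Probes of different genes bind with different strength, so signals are compared within a probe only. The number of arrays, 3 in each group, limits the precision. P-values measure the spread between these replicate samples. No source used here says whether the samples came from separate cultures or separate transfections. A difference between the lines that arose apart from CT16 cannot be told apart from an effect of CT16. Ribosomal protein genes have many processed pseudogenes whose transcripts a probe may also bind, which was not tested.

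Between 16200 and 18789 probes (33.2 to 38.5%) were detected on an array, and the median signal was between 63.6 and 65.6. The melanocyte genes PMEL, MLANA, TYR, TYRP1, MITF and SOX10 were detected on all 6 arrays and S100B on 5, and DCT was not analysed here. A further MITF probe was detected on no array. PAGE5 itself was dim. On 1 of its probes the signal was 117, 120 and 171 in CT16 cells, against 80.7, 84.6 and 94.2 in control cells, a log2 difference of 1.11 ± 0.37 (SE, limma adjusted p = 0.582). A second PAGE5 probe differed by 0.02 and the remaining one was detected on no array. No source used here says which of these probes the transfected cDNA can bind. The authors report CT16 mRNA by quantitative PCR and CT16 protein by Western blot in the transfected cells. CT16 replicate 3 stood apart, with log2 correlations of 0.884 to 0.936 with the other arrays, over all tested probes. The other pairs lay between 0.955 and 0.994, and those with control replicate 1 between 0.955 and 0.977.

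In normalized values ribosomal protein transcripts as a group centred on the level of control cells. Quantile normalization gives every array the same distribution, so a change shared by many bright probes could be lost in it, which was not tested. No member probe passed the threshold of a limma adjusted p under 0.05. The count was 0 of 117 members, against 36 of 18156 tested probes (0.198%). The smallest adjusted p among the members was 0.322. At an unadjusted p under 0.05, 4 member probes were higher in CT16 cells (3.41% of all probes were) and 1 was lower (2.93% of all probes were). In normalized values all 3 CT16 arrays lay above all 3 control arrays for 5 members (7.14% of all probes) and below them for 3 members (6.92% of all probes). These shares were near or below those over all probes. In bulk RNA, fewer cells with a transcript and less of it per cell cannot be told apart.

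The median log2 difference was -0.01 over the 117 probes and also -0.01 over all tested probes. It was -0.01 for the large subunit and -0.03 for the small subunit, and these signs turned under median scaling in place of quantile normalization, where the medians were 0.0108 and 0.0077. The quartiles of the members lay at -0.08 and 0.06, against -0.25 and 0.21 over all probes, which were not matched to the members for signal. For 93 of 117 members the difference was under 0.2 in size, against 8138 of 18156 tested probes. The 95% interval stayed within a 1.5-fold change in either direction for 57 members, against 1275 of all tested probes. For the other 60 members the interval reached past a 1.5-fold change in at least 1 direction. The median SE was 0.21 for the members and 0.30 over all probes. Among members it was 0.20 for the 58 probes with a mean log2 signal of 13 or more and 0.30 for the 30 under 10. The interval stayed within a 1.5-fold change for 45 of those 58 and 2 of those 30.

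**Figure D1:**
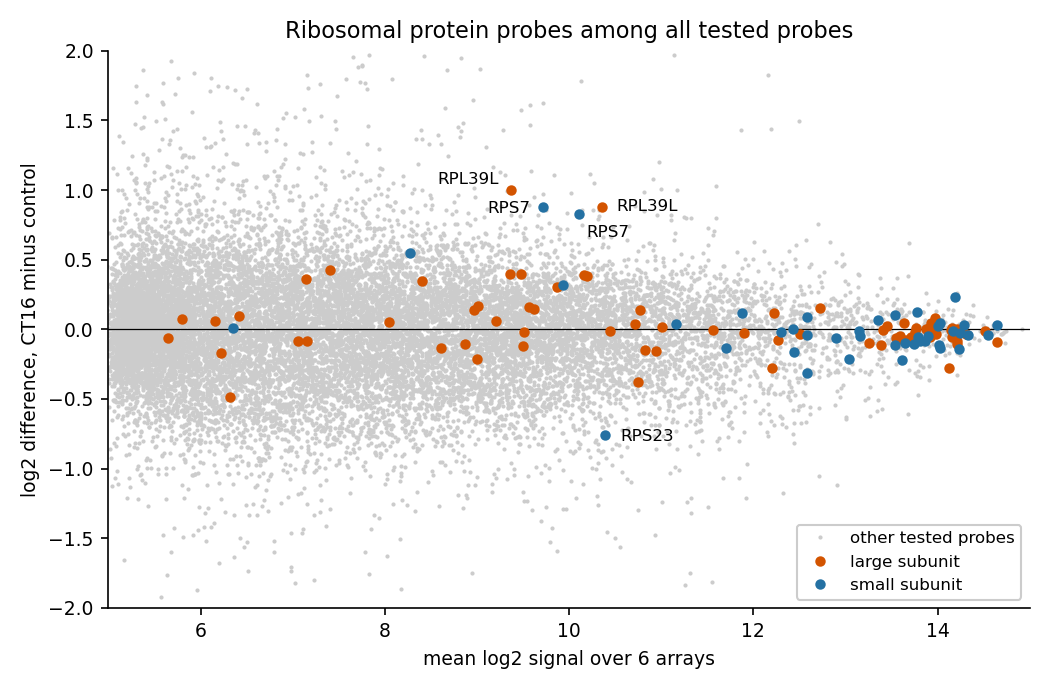
Log2 difference between CT16 and control cells (vertical) against the mean log2 signal over the 6 arrays (horizontal) for 117 ribosomal protein probes (orange, large subunit; blue, small subunit) and the other tested probes (grey, 102 of them outside the plotted range). Members with high signals lie close to 0, and the probes of RPS7, RPL39L and RPS23 lie farthest from it.

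The brightest members had the narrowest range of differences. Among the 58 member probes with a mean log2 signal of 13 or more, the median difference was -0.03 and the range ran from -0.28 to 0.23. RPS25, a small-subunit protein, gave signals of 23994, 24623 and 24050 in CT16 cells, against 22571, 24582 and 24950 in control cells. RPL41, the smallest protein of the large subunit, gave 18811, 18622 and 20131 in CT16 cells, against 18684, 18955 and 18817 in control cells. The groups overlapped for both, with log2 differences of -0.04 (95% interval -0.50 to 0.42) and 0.01 (95% interval -0.44 to 0.45). Such signals are near the top of the scale, as the highest signal on an array was between 29707 and 32331, and whether compression there narrows the differences was not tested. Among the 30 probes with a mean log2 signal under 10 the median was 0.08 and the range ran from -0.49 to 1.00.

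RPS7 and RPL39L had the highest values, each on both of its probes. RPS7 is a small-subunit protein that also binds MDM2. Its brighter probe gave signals of 1467, 1372 and 1695 in CT16 cells, against 799, 935 and 902 in control cells. The lowest CT16 array was above the highest control array. The log2 difference was 0.83 ± 0.22 (SE, n = 3 each), a 1.77-fold ratio with a 95% interval of 1.24 to 2.53, and the limma p was 0.00634 unadjusted and 0.377 adjusted over all tested probes. The second probe gave 1201, 1081 and 1251 in CT16 cells, against 609, 699 and 712 in control cells. Here too the groups did not overlap, with a difference of 0.88 ± 0.22 (adjusted p = 0.322). The 2 probes may share the same transcript and RNA samples, so they are not independent replicates.

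RPL39L is a paralog of the large-subunit protein RPL39, best known from testis and found in some tumours. Its brighter probe gave signals of 1599, 1590 and 2440 in CT16 cells, against 991, 1152 and 917 in control cells. The groups did not overlap, and CT16 replicate 3 was the highest array. The log2 difference was 0.88 ± 0.27 (SE), a 1.84-fold ratio with a 95% interval of 1.19 to 2.84, and the limma adjusted p was 0.497. On the second probe the signals were 850, 799 and 1425 in CT16 cells, against 529, 529 and 507 in control cells, a difference of 1.00 ± 0.32 (adjusted p = 0.548). Without CT16 replicate 3 the brighter probes of RPL39L and RPS7 differed by 0.65 (adjusted p = 0.214) and 0.70 (adjusted p = 0.147).

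The core member RPL39 is one of the smallest ribosomal proteins and lines the exit tunnel. Its single probe gave signals of 17430, 18758 and 13362 in CT16 cells, against 18474, 20834 and 19101 in control cells. The groups overlapped, with CT16 replicate 3 lowest, and the log2 difference was -0.28 ± 0.24 (adjusted p = 0.959). Without CT16 replicate 3 it was -0.09. The difference between RPL39L and RPL39 in their response was not tested.

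RPS23, a small-subunit protein of the decoding centre, had the lowest value. Its probe gave 1252, 1473 and 593 in CT16 cells, against 1431, 2017 and 1950 in control cells. These deposited signals overlapped, since CT16 replicate 2 was above control replicate 1. After background correction and normalization all 3 CT16 arrays were below all 3 control arrays. The log2 difference was -0.76 ± 0.30, with a 95% interval of -1.46 to -0.05, and the limma p was 0.0388 unadjusted and 0.739 adjusted. CT16 replicate 3 was far below the other CT16 arrays, and without it the difference was -0.45 (adjusted p = 0.377).

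The calls for these 3 genes changed when limma weighted the arrays by their fit to the model, which gave CT16 replicate 3 a weight of 0.0710. The adjusted p was then 0.00204 for RPS7, 0.00799 for RPL39L and 0.0140 for RPS23 on the brightest probes, and 1879 of all tested probes passed the threshold as well, with 5 member probes among them.

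RPS3 is a small-subunit protein at the mRNA entry channel that also takes part in DNA repair. Its signals were 19211, 18739 and 24399 in CT16 cells, against 16882, 18022 and 16848 in control cells. The groups did not overlap, but the log2 difference of 0.23 ± 0.20 had a 95% interval of -0.23 to 0.70 (adjusted p = 0.959). RPL12, a protein at the base of the ribosomal stalk, and RPS14 were the other members whose normalized arrays did not overlap. Both were lower in CT16 cells by small amounts, with differences of -0.11 ± 0.19 and -0.11 ± 0.19. A second RPS14 probe differed by 0.06, and its groups overlapped.

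**Figure D2:**
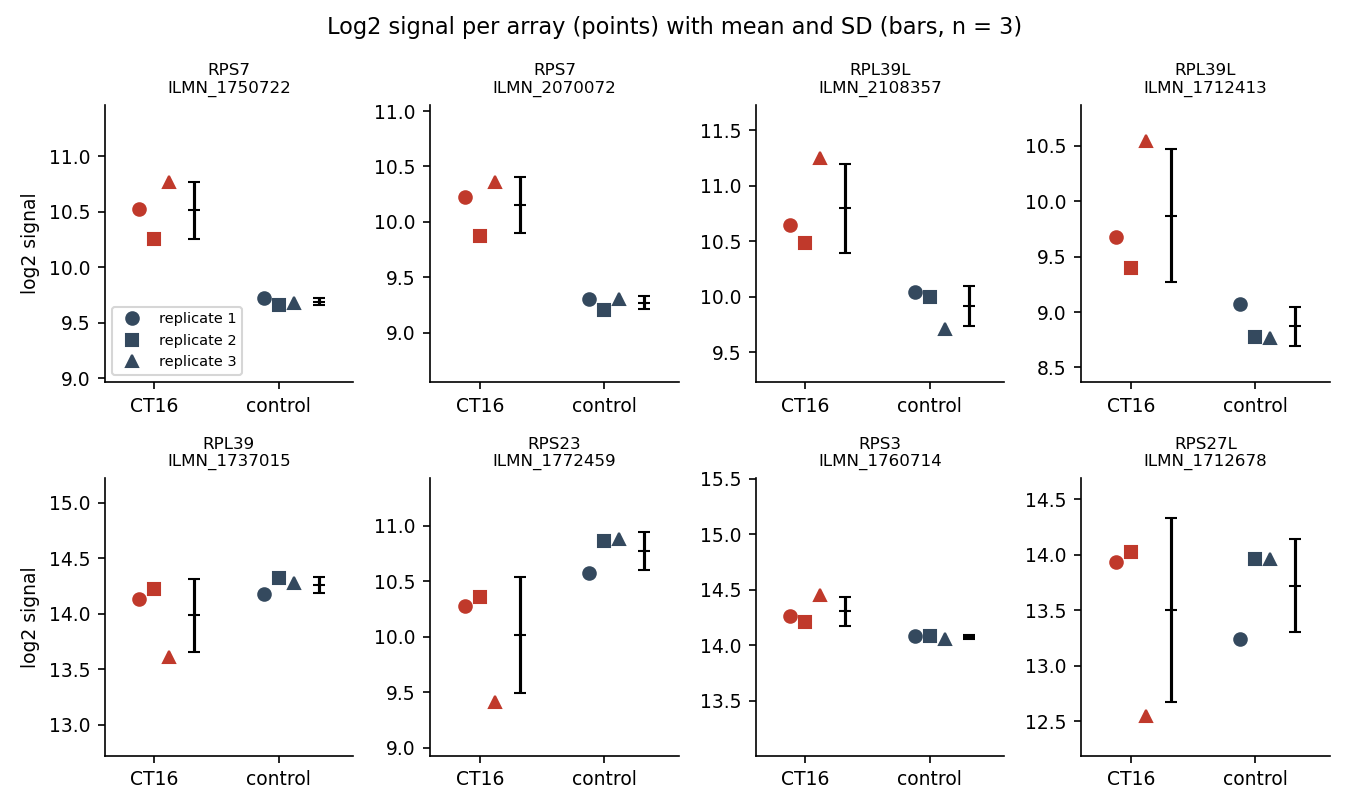
Log2 signal of 8 probes (panels) on each array, with CT16 cells in red and control cells in dark blue, symbols for the replicate number and bars for mean and SD (n = 3). Both RPS7 and both RPL39L probes are higher on every CT16 array, whereas in RPL39, RPS23 and RPS27L the triangle of CT16 replicate 3 lies below the other CT16 arrays.

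Other members at the ends of the order overlapped between the groups. RPL7A, RPL13 and RPL34 of the large subunit had log2 differences of 0.40, 0.38 and 0.30. Without CT16 replicate 3 they differed by 0.16, 0.02 and 0.22 in the same order. Without control replicate 1 they differed by 0.63, 0.58 and 0.13. RPL37, RPL22, RPL26 and RPS27L had differences of -0.49, -0.38, -0.28 and -0.22. These values rested on CT16 replicate 3. Without it RPL37 differed by -0.03, and the direction turned for RPL22 (0.10), RPL26 (0.19) and RPS27L (0.26). Control replicate 1 shifted the same way in these genes. With both arrays left out, a choice made after the data were seen, RPL37, RPL22, RPL26 and RPS27L differed by -0.16, -0.07, -0.12 and 0.01. RPL7A, RPL13 and RPL34 then differed by 0.39, 0.23 and 0.05. For RPL7A the limma p was then 0.0312 unadjusted and 0.240 adjusted. With all arrays kept, the smallest unadjusted limma p among these 7 was 0.243, for RPL7A. RPL37 was the only tested member not detected on every array, with 2 of 3 CT16 arrays and 3 of 3 control arrays on its brighter probe.

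RPS27L, a paralog of RPS27 whose gene is a p53 target, had a difference that depended on which arrays were kept. Its tested probe gave 15051, 16274 and 6539 in CT16 cells, against 9122, 16545 and 15682 in control cells. CT16 replicate 3 and control replicate 1 were both low, while the other 4 arrays lay together. The log2 difference was -0.22 ± 0.44 with all arrays and 0.26 without CT16 replicate 3. With control replicate 1 left out too, a choice made after the data were seen, it was 0.01. RPS27 gave 19273, 20002 and 16540 in CT16 cells, against 19374, 20967 and 19820 in control cells, a log2 difference of -0.14 ± 0.21.

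The remaining paralogs had differences under 0.2 in size with all 6 arrays, but 3 of them moved without CT16 replicate 3, to -0.43 for RPL10L, 0.33 for RPL26L1 and 0.21 for RPL7L1, whose direction turned. RPL7L1, which belongs to precursors of the large subunit, differed by -0.02 ± 0.27 and RPL36AL by -0.06 ± 0.20. RPL26L1 differed by 0.14 ± 0.25. RPL10L, which replaces RPL10 in male germ cells, was dim and gave 105, 98.5 and 115 in CT16 cells, against 123, 120 and 117 in control cells, with a log2 difference of -0.17 ± 0.29. RPL3L, a paralog of RPL3 in skeletal muscle and heart, was detected on no array. The deposited RPL10L signals did not overlap, but its normalized values did. In normalized values RPL39L was the only one of the 6 tested paralogs whose arrays did not overlap. On the brightest probe of each gene, 765 of all 11264 genes were higher without overlap and 833 were lower.

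The stalk proteins recruit elongation factors to the ribosome. RPLP1 gave 15265, 16153 and 16621 in CT16 cells, against 15731, 17066 and 14334 in control cells on its brightest probe, with a difference of 0.03 ± 0.19. A dimmer RPLP1 probe gave 575, 642 and 1429 in CT16 cells, against 628, 651 and 596 in control cells, and its difference of 0.40 ± 0.42 came with 1 high array, CT16 replicate 3. RPLP2 differed by -0.06 ± 0.20.

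Proteins with roles outside the ribosome were divided in direction, with 4 positive and 4 negative differences among 8 measured genes over all 6 arrays. RPL5 and RPL11, which bind MDM2 together with a ribosomal RNA, differed by -0.01 ± 0.34 and -0.08 ± 0.20. RPL23, which also binds MDM2, differed by 0.01 ± 0.20. For RPL5 the signals were 3590, 4172 and 1889 in CT16 cells, against 2125, 3596 and 3680 in control cells, so the wide error came with the low values of CT16 replicate 3 and control replicate 1. RPL26, which binds p53 mRNA, had the same pattern, with 5765, 6109 and 2234 in CT16 cells, against 3110, 6664 and 6460 in control cells. RPL13A, a part of a complex that represses translation after interferon, differed by 0.12 ± 0.24. RPS6, the substrate of the S6 kinases, differed by -0.13 ± 0.24. Without CT16 replicate 3 the direction turned for RPL23 (-0.02), RPL26 (0.19), RPL13A (-0.05), RPS6 (0.07) and RPL5 (0.32). RPL10, a protein needed for a working large subunit, was detected by neither of its probes. The other probes detected on no array were 1 each of RPL3, RPL3L, RPL36A and RPS27L, and signals of all 6 lay between 52.2 and 67.1.

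For 37 genes several probes were tested, and 22 of these had probes of 1 sign. In 29 the probes lay within 0.2 of each other on the log2 scale. In RPS15 and RPL37 they lay over 0.5 apart. RPS15, a small-subunit protein, gave 14257, 13995 and 15677 in CT16 cells, against 15836, 16057 and 14552 in control cells on its brightest probe. The difference there was -0.08 ± 0.19. Its dimmest probe gave 344, 301 and 663 in CT16 cells, against 357, 300 and 264 in control cells. There the difference was 0.55 ± 0.46, and CT16 replicate 3 was about as far above the other CT16 arrays as for the dim RPLP1 probe, with shifts of 1.51 and 1.48. The RPL37 probes differed by -0.49 and 0.07.

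**Figure D3:**
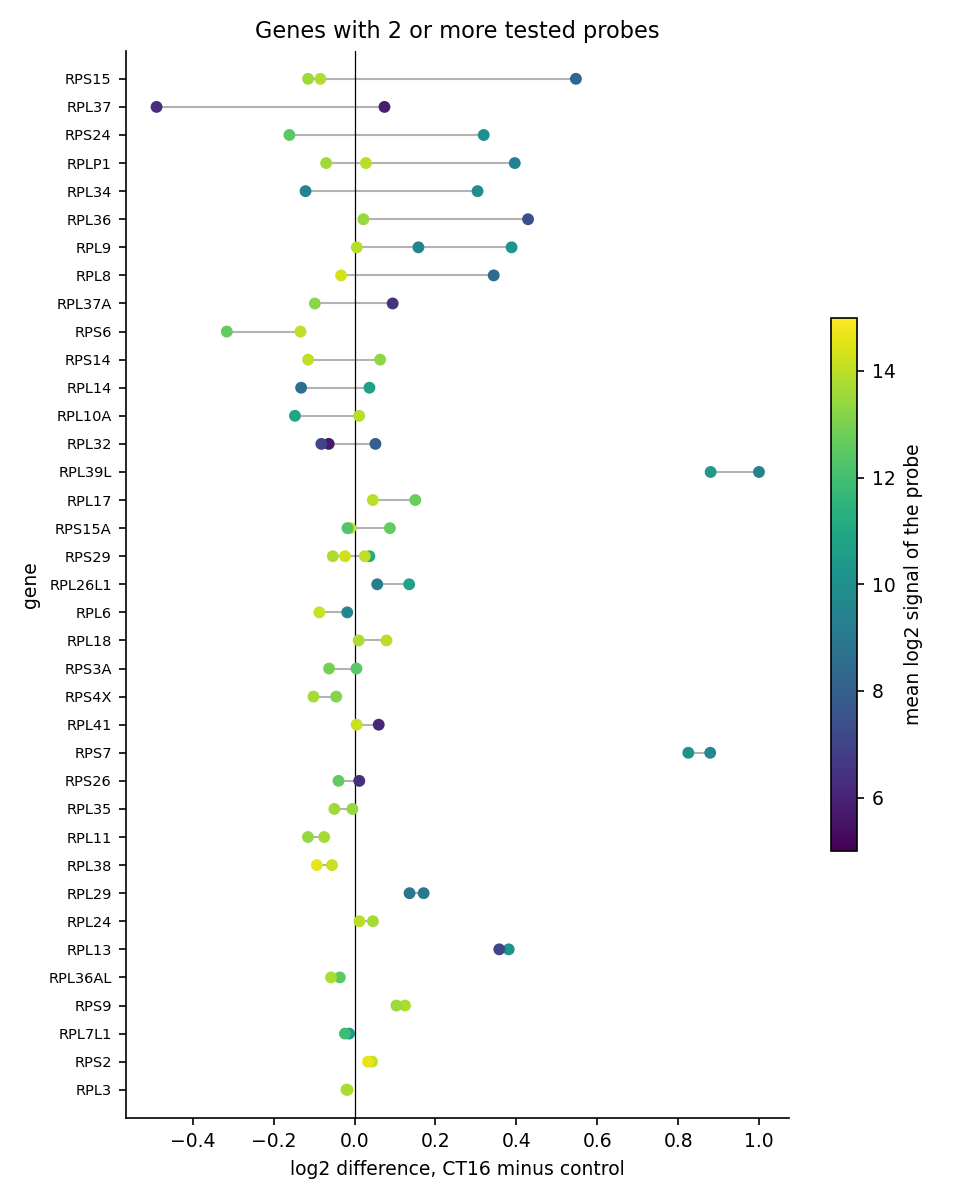
Log2 difference between CT16 and control cells (horizontal) of each tested probe in the 37 genes with 2 or more probes (rows, ordered by the spread between their probes, widest at the top), with colour for the mean log2 signal. RPS7 and RPL39L are the genes whose probes all lie above 0.5, and in RPS15 the outlying probe is the dim one.

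The spread between arrays followed the same pattern across the members. The SD of the members' deviation from their group mean was 0.44 on CT16 replicate 3 and 0.10 to 0.27 on the other arrays. Against the mean of the other CT16 arrays, CT16 replicate 3 was higher by over 0.5 for 27 members and lower by over 0.5 for 19, against 6423 and 5801 of the 18156 tested probes. Control replicate 1 shifted against the other control arrays in the same direction as CT16 replicate 3 in 91 of 117 members (Pearson's r = 0.81, Spearman's rho = 0.81). These correlations are across probes that share the same 6 arrays, so they are a description, and over all tested probes r was 0.75, with the same direction in 14720. The SD of the shift of CT16 replicate 3 was 0.66 in the members and 0.98 over all tested probes. The shift of CT16 replicate 3 was wider in dim members. Its SD was 0.31 in the 58 members with a mean log2 signal of 13 or more, 0.71 in the 29 between 10 and 13, and 0.83 in the 30 below 10, where its median was 0.76. The part of RNA quality or hybridization in this pattern was not tested. With CT16 replicate 3 and control replicate 1 both left out, a choice made after the data were seen, 0 members passed the threshold in limma and 6 had an unadjusted p under 0.05, against 411 and 3100 of all tested probes. RPS7, RPL39L and RPS23 then differed by 0.72 (adjusted p = 0.0703), 0.72 (adjusted p = 0.0847) and -0.55 (adjusted p = 0.0897) on their brightest probes. Without CT16 replicate 3 alone, 205 of all tested probes passed and again 0 members.

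**Figure D4:**
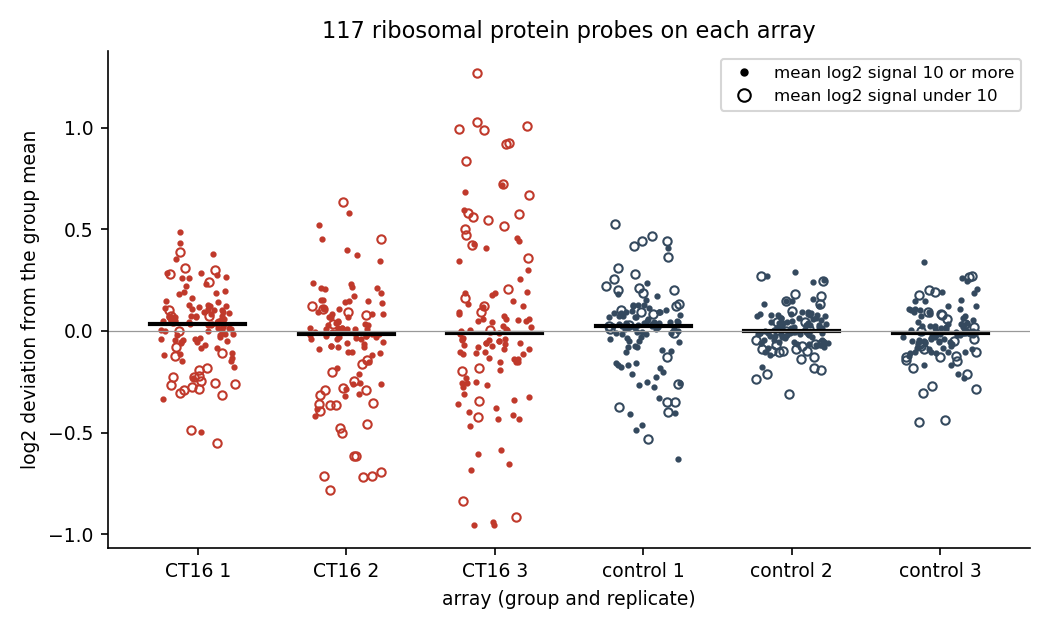
Deviation of each of the 117 ribosomal protein probes from its group mean (vertical, log2) on each array (horizontal), with open circles for probes with a mean log2 signal under 10 and black lines for the median. The median stays near 0 on every array, and the spread is widest on CT16 replicate 3. Values are quantile normalized and centred on the group mean, so a median near 0 does not show that levels were stable.

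The members' share of the total signal was also even. It was 5.69, 5.39 and 5.82% in CT16 cells, against 5.74, 5.63 and 5.52% in control cells. The groups overlapped.

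Genes that make or control ribosomes gave 0 probes past the threshold in each list, counted on the brightest probe of each gene, where 27 of all 11264 genes passed. The other TOP mRNAs, which encode elongation factors and related proteins, had a median log2 difference of -0.09 over 19 genes. EEF1A1 and TPT1, the brightest of them, differed by -0.10 ± 0.20 and -0.04 ± 0.21. Ribosome biogenesis factors had a median of -0.02 over 56 genes and RNA polymerase I subunits of 0.03 over 15. Initiation factors had a median of -0.11 over 33 genes. A list of kinases, translational repressors and transcription factors (MYC and MAX) known to act on ribosomal protein mRNAs or genes had a median of -0.22 over 16 genes, where AKT1 and RHEB, which act upstream of mTOR, differed by -0.32 ± 0.24 and 0.06 ± 0.25. The mitochondrial ribosomal proteins, which serve a separate ribosome, had a median of 0.10 over 77 genes, 53 of them positive. On the same count 27 of 73 cytosolic members and 5320 of all 11264 genes were positive. The lists were not matched for signal. The difference between these lists was not tested. The median over all genes was -0.03. FAU, whose product holds a ribosomal protein fused to a ubiquitin-like protein, differed by 0.05 ± 0.23.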

How the data were processed

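Total RNA of 3 CT16 and 3 control samples was amplified, biotinylated and hybridized to Illumina Human-6 bead arrays. Intensities in the first table deposited by the authors had no background subtraction and no normalization between arrays. The authors also deposited a second table of quantile normalized intensities, of which 99.998% lay within 1% of quantile normalized signals computed here. The deposited table also holds a detection p-value for each probe and array. The authors selected genes with the rank product algorithm, which was not rerun here, since limma gives each probe an SE and an interval.

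Among 48804 rows 1 probe was listed again, and its rows were averaged. The background was corrected with nec in limma 3.58.1 (R 4.3.3), which infers the negative controls from the detection p-values, with an offset of 16, followed by quantile normalization and log2. The linear model had 1 term for the plasmid and was fitted with lmFit and eBayes, two-sided, on all tested probes, with Benjamini-Hochberg adjustment over all of them and a threshold of 0.05. The fit was tested on simulated data. Symbols came from the platform annotation, in which 27578 probes had 1 symbol, 13 several and 21212 none listed here. Of the identifiers, 27541 were found in RefSeq and 0 symbols changed.

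Named genes were members past the threshold, the 6 highest and 6 lowest on their brightest probe, all stalk proteins, paralogs and proteins with roles outside the ribosome, and genes whose probes differed by over 0.5. RPS25, RPL41, RPS27, RPL12 and RPS14 were added after their values were seen. The 2 genes with the highest signal were named for the other TOP mRNAs and for the list that holds AKT1 and RHEB. They were not named for ribosome biogenesis, RNA polymerase I, initiation factors and mitochondrial ribosomal proteins. Otherwise genes were chosen after their values were seen. The members and lists were chosen with earlier results of these data known. Alternatives covered the background, the normalization, the detection filter, the variance model, array weights, the replicate block, the probe rule and each array left out.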

Additional observations from a re-analysis of the deposited data

How the results depend on the processing

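Member calls were made in 1 of 17 alternatives. With array weights 5 member probes passed the threshold, both of RPS7, both of RPL39L and that of RPS23, together with 1879 of all tested probes. The weights were 0.0710 for CT16 replicate 3, 0.341 for control replicate 1 and up to 4.71 for control replicate 2, from the gene-by-gene method, as the REML method could not be fitted. Over the alternatives the adjusted p was between 0.00204 and 1 for RPS7, between 0.00799 and 1 for RPL39L and between 0.0140 and 1 for RPS23, and none of the 3 changed sign. Of 26 named values 13 changed sign in some alternative, all of them uncalled.

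The count of members at an unadjusted p under 0.05, 5 in the reported fit, was 10 with array weights, 3 with the mean of a gene's probes and between 2 and 5 with 1 array left out, with 3 without control replicate 2 and 2 without control replicate 3. It was 6 without CT16 replicate 3 and control replicate 1, a choice made after the data were seen. The small-subunit median was 0.0077 with median scaling, -0.0024 with cyclic loess, 0.0074 with array weights and -0.0042 without CT16 replicate 3 and control replicate 1, against -0.03 as reported. With 1 array left out it was between -0.0392 and -0.0082. Calls over all tested probes were between 3 and 1879, with 4 without CT16 replicate 1, 17 without CT16 replicate 2, 205 without CT16 replicate 3, and 4, 5 and 10 without control replicates 1, 2 and 3. The cause was not tested.

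Whether replicate numbers pair the samples is not known. Deviations of same-numbered arrays from their group mean correlated at -0.62, 0.61 and -0.58. Within a group these deviations depend on each other, and CT16 replicate 3 correlated at -0.89 and -0.95 with the other CT16 arrays. The values therefore follow the array that stands apart and cannot decide the pairing. With the replicate block 0 members passed and 4 had an unadjusted p under 0.05, and 3 of all tested probes passed, against 36 without it. Probes near the background are limited by signal, and the number of arrays by 3 in each group.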

Other observations

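Probes of ribosomal protein pseudogenes were kept out of the members. The largest difference among them was on 1 probe of RPL23AP7, at -0.76 ± 0.22 (limma adjusted p = 0.443, arrays not overlapping), while the second probe of the same pseudogene differed by -0.06 ± 0.23. RPL13AP6 differed by -0.15 ± 0.23 and RPS26P11 by -0.08 ± 0.23.

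RRP7A, a factor of ribosomal RNA processing, had arrays that did not overlap on 1 probe, at 1.10 ± 0.42 (adjusted p = 0.721), and differed by 0.61 ± 0.42 on its brighter probe (adjusted p = 0.959). MYC, a transcription factor that promotes ribosome production, differed by -0.48 ± 0.22 on its brighter probe (adjusted p = 0.858), where the CT16 arrays were all below the control arrays, and by -0.12 ± 0.22 on the other. The S6 kinases RPS6KB1 and RPS6KB2 phosphorylate RPS6. RPS6KB1 differed by -0.47 ± 0.61. RPS6KB2 differed by 0.38 ± 0.34 on its brighter probe and by 0.53 ± 0.51 on the dimmer one.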
